A study of Mus musculus with 2 samples.

Results

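The genes described here are 8 genes known from tuft cells of the thymic medulla: Pou2f3, Trpm5, Avil, Dclk1, Il25, Plcb2, Gnat3 and L1cam. They were chosen by name and matched by Ensembl gene identifier, and all 8 were present among the 43346 gene rows of both libraries. Total RNA of the thymus of newborn B6NCrl mice (postnatal day 0) was sequenced from both lobes of 2 pups of 1 pregnant female, as 1 library per pup and 10 ng of RNA per library. The labels name no treatment, genotype or other tissue, so the 2 libraries form 1 group. The question addressed is how far tuft cell genes were present at birth.

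Tuft cells are rare epithelial cells that sense their surroundings with the signalling parts of taste cells. A ligand at a G protein-coupled receptor frees a G protein with the alpha subunit gustducin (Gnat3), phospholipase C beta (Plcb2) then releases calcium, and the cation channel Trpm5 opens. The POU-domain factor Pou2f3 is required for the lineage, and the cytokine interleukin-25 (Il25) and lipid mediators are among its products. In the thymus such cells lie in the medulla, among the epithelial cells that show self-antigens to maturing T cells.

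Reads assigned to genes came to 39045711 in replicate 1 and 41576378 in replicate 2, in units of expected counts, an estimate that shares out ambiguous reads and so is often fractional. Levels are given as TPM, a relative abundance per transcript length, and are the only scale on which levels of different genes are set side by side. Markers of the labelled tissue were present: 6 of 6 T cell genes, 6 of 6 cortical epithelial genes and 11 of 12 medullary epithelial genes reached 1 TPM in both libraries. In bulk tissue, fewer cells of a type and less RNA per cell cannot be told apart. With 2 littermates in 1 group no test between groups was possible, and no p-value is given.

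Of the 8 genes, 3 reached 1 TPM in both libraries: Plcb2, Pou2f3 and Dclk1. The same threshold was passed by 32.2% of all genes and by 57.3% of protein-coding genes, so the share among the 8 was below that of protein-coding genes. The 57.3% is also the background for the count of every gene list in this report. By counts the picture was wider. An expected count of at least 10 in both libraries was reached by 7 of the 8, every one except Il25, against 69.3% of protein-coding genes. In the order of mean TPM, Plcb2 stood apart at the top, Pou2f3 came next and Dclk1 followed. Dclk1, Trpm5, Gnat3 and Avil were not ordered among neighbours, since the ranges of the 2 libraries overlapped from each to the next. L1cam lay below all 4 by its deposited levels, but the authors' intervals for it overlapped those of all 4, so its place is uncertain. Il25 came last.

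**Figure D1:**
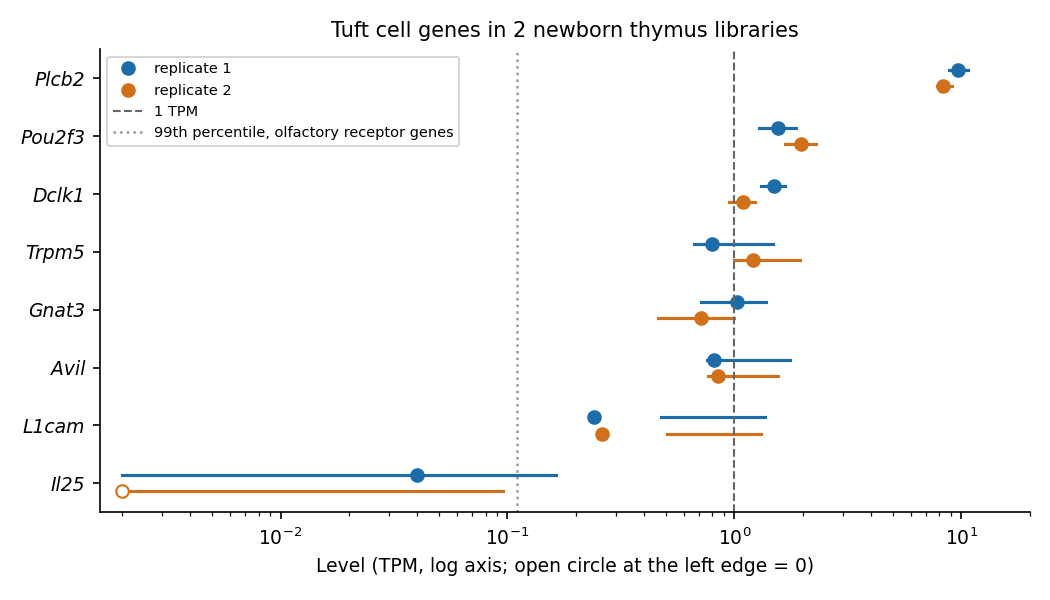
Level of each of the 8 genes in both libraries in TPM on a log axis, with the bounds of the authors' interval as bars, a dashed line at 1 TPM and a dotted line at the 99th percentile of olfactory receptor genes. Plcb2 lies near 9 TPM, 5 genes lie within about a factor of 2 of the dashed line, the points of Il25 lie left of the dotted line, and the bars of L1cam do not cover its points.

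Pou2f3 (ENSMUSG00000032015, GRCm38 chromosome 9, 43123939 to 43210369) had 114 and 157 counts in replicates 1 and 2. This was 1.56 and 1.97 TPM, a mean of 1.77 ± 0.290 (SD, n = 2). Replicate 2 was the higher, and the intervals that the authors deposited with these levels, 1.28 to 1.86 and 1.67 to 2.29 TPM, overlapped. Nearly all of it was assigned to the coding transcript Pou2f3-201, at 95.82% and 100% of its TPM. No stretch of 100 bases of its transcripts occurred in a transcript of another gene on either strand. Keratinised markers (2 of 6 at 1 TPM in both libraries) summed to 29.3 and 25.5 TPM. Their part in the level of Pou2f3, like that of any other cell kind, was not tested.

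Within its family Pou2f3 was not the highest. Pou2f1, a factor present in most tissues, had 12.83 and 9.46 TPM. Pou2f2, known from lymphocytes, had 1.19 and 1.55 TPM, so that its higher library came up to just below the lower library of Pou2f3. The coactivators that work with Pou2f3 in tuft cells were also counted. Colca2 (also named Pou2af3) had 40 and 67 counts, or 1.17 and 1.81 TPM, while its neighbour on chromosome 9, 1810046K07Rik (Pou2af2), had 8 and 14 counts, or 0.22 and 0.36 TPM. Pou2af1, the coactivator of B cells, lay in the same range as Colca2 at 1.15 and 1.48 TPM.

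Of the 11 other transcription factors of the tuft list, 6 reached 1 TPM in both libraries, near the 57.3% of protein-coding genes. The list median was 1.49 TPM. The 3 highest, Sox4 (88.33 and 64.74 TPM), Runx1 (36.36 and 32.32 TPM) and Spib (12.31 and 13.91 TPM), are also made by T-lineage, B-lineage or dendritic cells. Sox9, a factor of many epithelia and of cartilage, had 4.92 and 5.97 TPM. Gfi1b, which is shared with blood cell precursors, had 0.95 and 1.44 TPM from 45 and 49 counts. Hmx2, a homeobox gene tied to the tuft lineage, had 0 and 3 counts, and Hmx3 had 2 and 1.

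The parts of the taste-type cascade were present at unequal levels. Gnat3 (ENSMUSG00000028777, chromosome 5, 17962549 to 18019834), the alpha subunit gustducin, had 36 and 27 counts, or 1.03 and 0.71 TPM. It has 1 annotated transcript in the tables, and shared no 100-base stretch with another gene, the related Gnai genes included. In its family the inhibitory subunits Gnai2 (382.88 and 396.6 TPM) and Gnai3 (138.13 and 135.97 TPM) were far higher. The transducins of photoreceptors lay somewhat lower. Gnat1 had 0.69 and 0.51 TPM, from 9 counts in each library, and Gnat2 had 0.48 and 0.56 TPM, from 17 counts in each. By TPM gustducin thus did not stand far above 2 relatives that serve the eye. Which forms of these 2 relatives held the counts was not examined.

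Plcb2 (ENSMUSG00000040061, chromosome 2, 118707517 to 118728438) was the highest of the 8, with 1054 and 1059 counts, or 9.64 and 8.31 TPM (mean 8.98 ± 0.940). As a whole gene it had the highest level of the 4 phospholipase C beta genes, with Plcb4 at 5.72 and 5.03 TPM and Plcb3 at 4.46 and 4.69 TPM. The coding form of Plcb2 alone was close to the whole-gene level of Plcb4, which was not split into forms. Plcb2 is also made by myeloid cells and lymphocytes, which this tissue holds in quantity. The granulocyte and macrophage markers (9 of 10 at 1 TPM in both libraries) summed to 422 and 355 TPM, with none at 0, and the T cell markers to 2939 and 2995 TPM. Their part in the level of Plcb2 was not tested. The coding transcript Plcb2-202 took 75.8% and 77.5% of the counts, and the forms annotated as retained introns took 24.2% and 22.5%. By TPM, which weights the shorter forms more, the retained-intron forms took 44.3% and 38.5%, and Plcb2-202 alone stood at 5.37 and 5.11 TPM.

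Trpm5 (ENSMUSG00000009246, chromosome 7, 143069153 to 143094642), the calcium-gated channel at the end of the cascade, had 40.21 and 65.92 counts, or 0.80 and 1.21 TPM. Replicate 2 was the higher. The full-length coding transcript Trpm5-201 held 20.37 and 22.56 of these counts and only 0.17 and 0.18 TPM. A short form, Trpm5-206, held 8.36 and 16.15 counts, but at a length of 726 bases it made up 56.47% and 66.96% of the gene's TPM. Without it the gene stood at 0.340 and 0.410 TPM.

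The last exon of Trpm5-206 lies opposite the start of Tssc4, a gene read from the other strand at 59.83 and 63.69 TPM. Of the 726 bases, 217 lie opposite Tssc4 exons, and 118 of the 6684 different 100-base stretches of Trpm5 (1.77%) also occur, reversed, in Tssc4 transcripts. The use of strand in counting is not given in the sources used here, so reads of the 2 genes cannot be told apart there, and the gene-level TPM of Trpm5 rests partly on this form. The coding bases of that last exon, at chr7:143069311-143069465 on the minus strand (GRCm38, GENCODE M21 transcripts), are shown because they are the contested stretch. They stand in capitals after 60 bases of the exons before, which Tssc4 does not share.
Trpm5-206: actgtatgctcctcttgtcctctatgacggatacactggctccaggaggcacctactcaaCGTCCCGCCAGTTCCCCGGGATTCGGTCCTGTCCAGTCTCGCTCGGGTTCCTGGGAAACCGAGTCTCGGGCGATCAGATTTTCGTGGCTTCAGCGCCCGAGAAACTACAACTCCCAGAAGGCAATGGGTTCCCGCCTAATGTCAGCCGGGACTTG

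Among the TRPM channels, Trpm5 ranked below Trpm7 (45.28 and 35.26 TPM), Trpm2 (9.20 and 11.02 TPM) and Trpm4 (1.77 and 1.52 TPM), its closest relative. Trpm1 (1.22 and 1.46 TPM) also lay above its range.

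Of the 14 further genes of the cascade list, 6 reached 1 TPM in both libraries, below the 57.3% of protein-coding genes. The list median was 0.388 TPM. The 3 highest were Itpr2 (107.1 and 71.93 TPM), a calcium release channel, Plcg2 (6.90 and 6.41 TPM), a phospholipase of B and myeloid cells, and Gng13 (4.48 and 3.78 TPM), the gamma subunit that pairs with gustducin. Gnb3, the beta subunit of that trimer, had 92 and 105 counts, or 1.87 and 2.02 TPM, and Itpr3, the release channel of taste cells, had 3.69 and 3.85 TPM. All 3 subunits of the gustducin trimer were thus counted in both libraries. The counts of Gng13, 48.96 and 53.28, were fractional. Stretches shared with other genes were not examined for Gng13 and Gnb3. The regulators of G protein signalling Rgs13 (12 and 23 counts) and Rgs21 (16 and 18 counts) were low in both.

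Receptors that would feed the cascade were low and unequal. The taste receptor subunit Tas1r1 had 44 and 31 counts, or 0.49 and 0.27 TPM, and Tas1r3 had 13 and 25 counts, or 0.13 and 0.23 TPM, whereas Tas1r2 had 1 count in each library. The succinate receptor Sucnr1 had 12 and 5 counts, Ffar3 had 0 and 3, and Vmn2r26 had 0 in both. Of 35 bitter taste receptor genes (Tas2r), none reached 1 TPM, 24 had 0 counts in both libraries and 6 had a count in both. The highest was Tas2r108, at 2 and 4 counts, around the 3 counts that a measurement of 0 allows.

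The genes of cell shape and surface differed in how far they mark tuft cells. Avil (ENSMUSG00000025432, chromosome 10, 127000709 to 127020994) encodes advillin, an actin-bundling protein of microvilli that sensory neurons also make. It had 69.86 and 79.76 counts, or 0.81 and 0.85 TPM, all of it assigned to Avil-201. The 2 libraries nearly coincided, at a mean of 0.830 ± 0.0283 TPM. The authors' intervals for Avil, 0.754 to 1.75 and 0.766 to 1.56 TPM, hold these levels near their lower end and reach above 1 TPM. The exons of Avil shared 165 bases with Tsfm, a gene of the opposite strand at 61.61 and 62.61 TPM, and 2.00% of its 100-base stretches occurred in Tsfm. With the use of strand unknown, reads of Avil and Tsfm cannot be told apart there. No level of Avil without that stretch was computed. The relative Vil1 (villin) was lower, at 0.24 and 0.25 TPM, and gelsolin (Gsn) led the family at 111 and 112.76 TPM.

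Dclk1 (ENSMUSG00000027797, chromosome 3, 55242364 to 55539068), a microtubule-binding kinase used as a tuft cell marker, had 274 and 215 counts, or 1.5 and 1.09 TPM. Replicate 1 was the higher. Most of the level belonged to a form without the kinase exons. Dclk1-203, with 6 coding exons, took 222.99 and 172.4 counts, which was 85.11% and 83.77% of the gene's TPM (84.4% ± 0.948). The full-length Dclk1-201, with 16 coding exons, took 14.89% and 12.62%, and Dclk1-202, which starts further in and keeps the kinase exons, took 0% and 3.61%. The last exon of Dclk1-203 is 4744 bases of its 6026, and how many of the counts lay there was not tested.

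Both forms share their first 1035 coding bases, which hold the doublecortin part that binds microtubules, and then part. The junction is shown because it separates the 2 forms: the last 30 shared bases are in lower case and the next 54 coding bases of each form are in capitals (GRCm38, plus strand, GENCODE M21 transcripts). The capitals begin the exon chr3:55477805-55477937 in Dclk1-201 and fill the coding part of the last exon, chr3:55466573-55466626, in Dclk1-203.
Dclk1-201: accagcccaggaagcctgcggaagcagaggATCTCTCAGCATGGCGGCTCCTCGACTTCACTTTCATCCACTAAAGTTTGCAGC
Dclk1-203: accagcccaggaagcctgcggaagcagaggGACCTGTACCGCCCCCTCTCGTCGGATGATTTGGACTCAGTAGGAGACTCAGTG

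**Figure D2:**
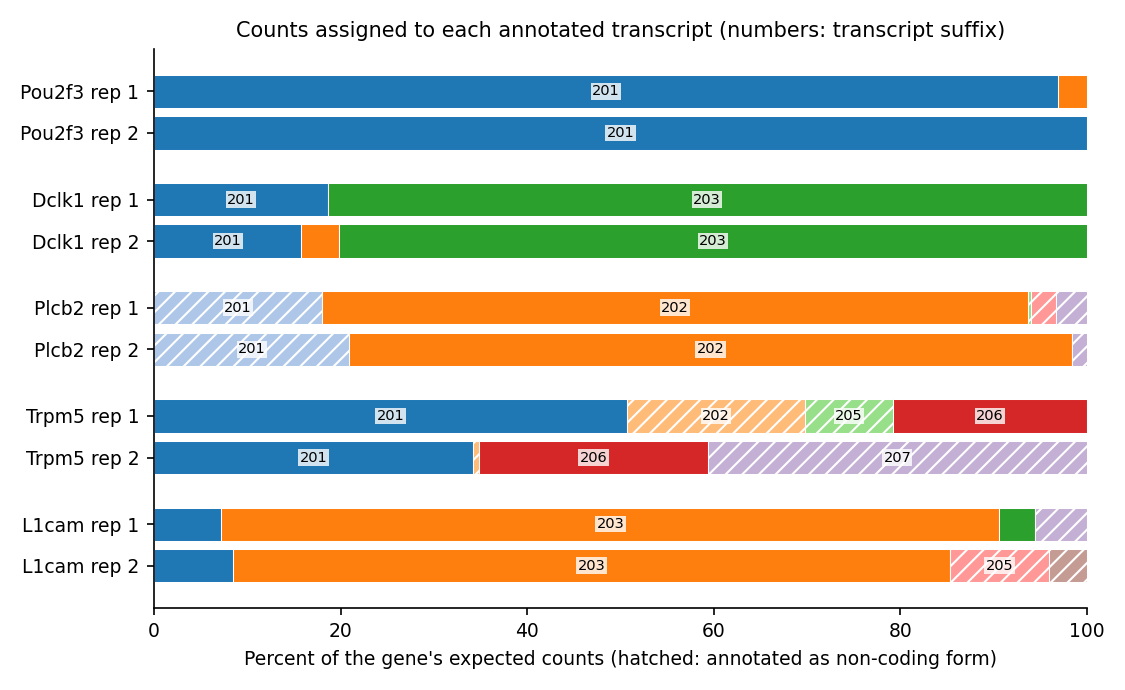
Percent of each gene's expected counts assigned to its annotated transcripts, for 5 of the 8 genes in both libraries, with non-coding forms hatched and the transcript's number inside each larger block. Dclk1-203 takes 81.4% and 80.2% of the Dclk1 counts, while Trpm5 is divided over several forms that differ between the libraries.

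Dclk1 is also made by neurons and some mesenchymal cells. Of 14 neuron and Schwann cell markers 3 reached 1 TPM in both libraries, below the 57.3% of protein-coding genes. These were Elavl4 (12.2 and 12.24 TPM), Tubb3 and Stmn2. The list summed to 30.4 and 33.8 TPM, and its first-listed gene Sox10 had 10 and 5 counts. The 6 mesenchyme markers summed to 298 and 339 TPM. The part of either list in the level of Dclk1 was not tested. Its relative Dclk2 was higher, at 12.72 and 10.13 TPM.

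L1cam (ENSMUSG00000031391, chromosome X, 73853778 to 73896105), an adhesion molecule of neurons that also marks thymic tuft cells, had 18 and 25 counts, or 0.24 and 0.26 TPM. The coding form L1cam-203 held 15.01 and 19.22 of them, and the rest was spread over forms with at most 2.67 counts each in a library. The authors' intervals for this gene, 0.473 to 1.37 and 0.504 to 1.31 TPM, lie above the deposited levels themselves, so its TPM is uncertain beyond counting error. In its family Chl1 (0.82 and 0.79 TPM) and Nrcam (0.68 and 0.64 TPM) were higher, and none of the 4 genes reached 1 TPM.

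**Figure D3:**
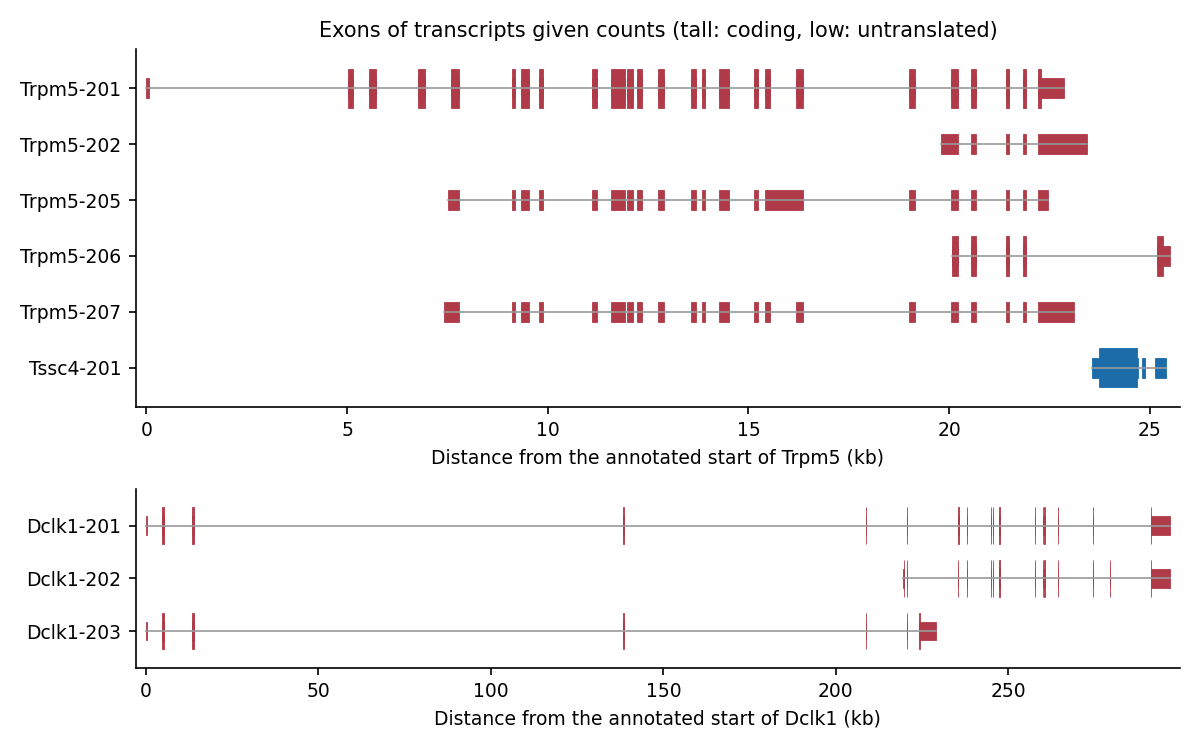
Exons of the transcripts of Trpm5 (top, with Tssc4-201, which is read in the opposite direction) and Dclk1 (bottom) that were given counts, by distance in kb from the annotated start of each gene, with coding parts drawn tall. The last exon of Trpm5-206 meets the first exon of Tssc4-201, and Dclk1-203 ends before most exons of Dclk1-201.

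Of 14 further tuft genes of structure and surface, 9 reached 1 TPM in both libraries, near the 57.3% of protein-coding genes. The median was 4.74 TPM. The 3 highest were the keratins Krt18 (1084.47 and 1127.78 TPM) and Krt8 (1006.19 and 997.24 TPM), which cortical epithelium also makes, and the phosphatase Ptpn18 (205.42 and 198.84 TPM). Of the 5 genes below 1 TPM, Siglecf had 0.60 and 0.58 TPM, Bmx 0.59 and 0.32 TPM and Vil1 0.24 and 0.25 TPM. Sh2d6 had 4 and 8 counts (0.20 and 0.66 TPM) and Sh2d7 had 8 and 6 counts (0.10 and 0.07 TPM).

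Il25 (ENSMUSG00000040770, chromosome 14, 54932695 to 54935837), the cytokine by which tuft cells act on type 2 lymphocytes, had 1 count in replicate 1 and 0 in replicate 2. Replicate 1 was at 0.04 TPM, with an authors' interval up to 0.163 TPM. The 0 counts of replicate 2 allowed up to 3, or 0.0722 CPM, which scales counts to the library's total. Both libraries were thus at or below the limit that an empty measurement allows, and Il25 was not detectable at this depth. It was the lowest of the IL-17 cytokine family, of which Il17b (2.05 and 2.12 TPM), Il17f (1.79 and 2.39 TPM) and Il17d (1.00 and 1.18 TPM) reached 1 TPM.

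Genes for other products of tuft cells were counted, though few are theirs alone. Of 9 effector genes 6 reached 1 TPM in both libraries, near the 57.3% of protein-coding genes. The median was 2.80 TPM. The 3 highest were the IL-25 receptor chain Il17rb (19.9 and 17.09 TPM), the leukotriene cofactor Alox5ap (18.1 and 18.36 TPM) and the prostaglandin D synthase Hpgds (11.44 and 11.03 TPM), which mast cells and macrophages also make. Mast cell and basophil markers (4 of 6 at 1 TPM in both libraries) summed to 42.4 and 46.1 TPM, with none at 0, and their part was not tested. Chat, the acetylcholine synthase of tuft cells, had 0 and 1 count, and the neuropeptide Nmu had 1 and 3.

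Genes listed for cells that receive IL-25 were higher than Il25 itself, though a listed gene need not come from such cells. Of 12 such genes and type 2 genes 8 reached 1 TPM in both libraries, near the 57.3% of protein-coding genes. The median was 15.1 TPM. The highest were the factor Gata3 (66.82 and 57.69 TPM), the lipid-presenting Cd1d1 (55.81 and 43.98 TPM) and the receptor chain Il17ra (50.86 and 44.95 TPM). The T cell markers summed to 2939 and 2995 TPM, and their part in these levels was not tested. Zbtb16 (0.76 and 0.87 TPM) and Eomes (10 and 6 counts) stayed below 1 TPM. Il4 (14 and 19 counts), Il13 (34 and 30 counts) and Il5 (28 and 21 counts) had few counts, at 1.00 and 1.2, 1.04 and 0.85, and 0.66 and 0.46 TPM.

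**Figure D4:**
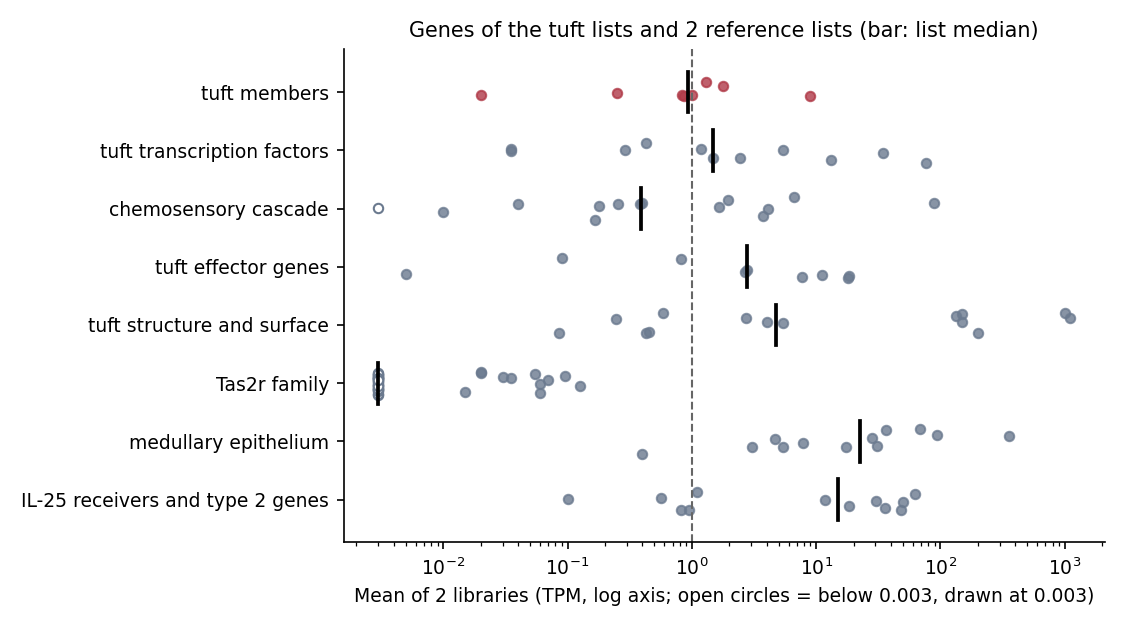
Mean level over both libraries of each gene in the tuft lists and in 2 reference lists, in TPM on a log axis, with a bar at each list's median and a dashed line at 1 TPM. The Tas2r genes lie at the left edge or below 0.2 TPM, and the list median rises from 0.388 TPM in the chemosensory cascade to 22.8 TPM in medullary epithelium.

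The levels were set against 2 references. The first was the medullary regulators: Aire, which drives self-antigen expression, had 7.22 and 8.34 TPM, and Fezf2 had 4.2 and 5.16 TPM. Pou2f3 stood at 21.6% and 23.6% of Aire and at 37.1% and 38.2% of Fezf2. Gnat3 stood at 14.3% and 8.51% of Aire, and Trpm5 at 11.1% and 14.5%. These percentages compare RNA levels per length, not numbers of cells. Which cells made the Pou2f3, Gnat3 and Trpm5 RNA was not tested.

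The second reference was a gene family that few tissues use. Of 1050 olfactory receptor genes none reached 1 TPM, 26 had a count in both libraries (2.48%), the 99th percentile of their mean was 0.110 TPM and the highest was 0.6 TPM. No olfactory receptor was as high as Pou2f3, Trpm5, Avil, Dclk1, Plcb2 or Gnat3. L1cam was matched or passed by 3 of them, and Il25 by 81 (7.71%). Trpm5 without Trpm5-206, at 0.340 and 0.410 TPM, lies above their 99th percentile and below their highest.

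Between the 2 pups none of the 7 genes with more than 3 counts differed over 2-fold, where 4.67% of the 17986 genes that averaged 10 or more counts did. Differences are log2 ratios of replicate 2 over replicate 1 of scaled counts, with a 95% exact binomial interval that covers counting error only. Trpm5 was 1.56-fold higher in replicate 2 (log2 0.64, interval 0.07 to 1.26) and Pou2f3 1.32-fold higher (0.40, interval 0.04 to 0.76). Dclk1 was lower in replicate 2, at -0.41 (interval -0.68 to -0.15). Within Trpm5 the full-length form was nearly equal, at 20.37 and 22.56 counts. The retained-intron form Trpm5-207 (0 and 26.78 counts) and the contested Trpm5-206 (8.36 and 16.15 counts) were higher in replicate 2. The retained-intron forms Trpm5-202 (7.71 and 0.43 counts) and Trpm5-205 (3.77 and 0 counts) were lower. All retained-intron forms together held 28.6% and 41.3% of the counts. These forms share exons with the full-length form, so the division of counts among them is uncertain. For Trpm5, Pou2f3 and Dclk1 the interval did not include 0. The share of all genes with such an interval was not counted. Over 18002 genes the libraries differed by more than sampling noise (chi-square 19.0 per degree of freedom). For Trpm5 the interval also treats rounded, shared-out counts as reads. Its authors' TPM intervals, 0.663 to 1.48 and 0.991 to 1.95, overlapped, as did those of Pou2f3, while those of Dclk1 did not. The intervals of Gnat3 (-0.47), L1cam (0.40), Avil (0.13) and Plcb2 (-0.06) included 0.

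Scaling on the spike-in RNA, which had 659 and 427 counts, moved the median of all genes from 0.01 to 0.70. Dclk1, Gnat3 and Plcb2 then turned from lower to higher in replicate 2, at 0.28, 0.21 and 0.63, so every direction given is relative to the bulk of genes. With 1 library per pup these differences have no replicate check.

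Log2 ratios of marker lists, scaled to the bulk of genes, are given next. With 2 libraries no likeness of pattern between genes can be measured. The cortical list had a median of 0.36, with sums of 1873 and 2197 TPM. Foxn1 (0.61), Tbata (0.59) and Psmb11 (0.56) carried it, while Ccl25 (0.01) and Ly75 (0.00) lay at the median of all genes. The medullary list had a median of 0.12, with sums of 636 and 668 TPM. The coactivator Colca2 was higher in replicate 2, at 0.67, from 40 and 67 counts. It is 1 of 8 genes of the transcription factor list that averaged 10 or more counts, of which 5 were higher in replicate 2 and 3 lower. The other tuft lists were divided in direction, with medians of 0.08 in the cascade, 0.14 in the transcription factors and 0.05 in both the effectors and the structure and surface genes, against 0.01 over all genes. Squamous markers of the kind found in the oesophagus were lower in replicate 2, 5 of 5, at a median of -3.96. They summed to 87.5 and 8.75 TPM. The part of any of these in the differences of the 8 genes was not tested.

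**Figure D5:**
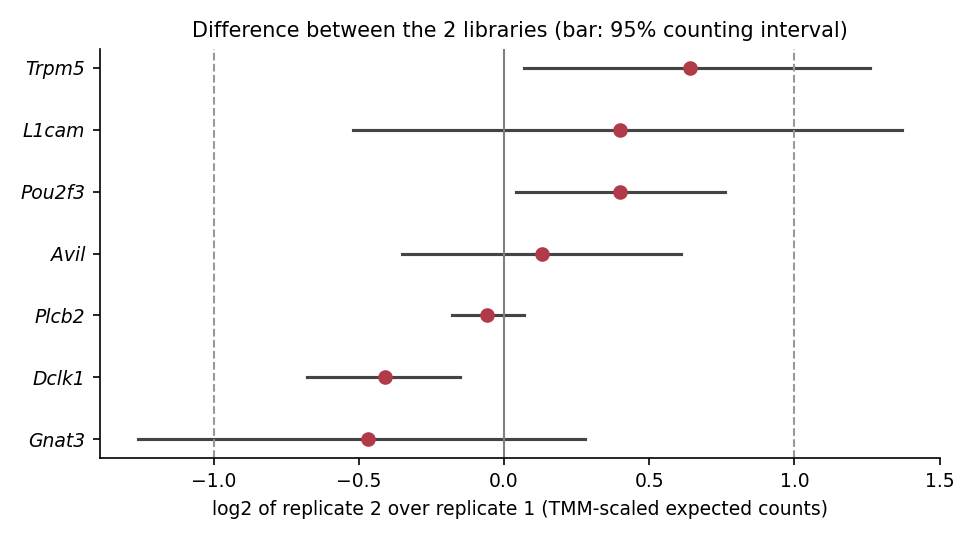
Log2 ratio of replicate 2 over replicate 1 for the 7 genes with more than 3 counts (Il25 is left out), after scaling to the bulk of genes, with 95% counting intervals as bars, a solid line at 0 and dashed lines at 2-fold. All 7 points lie between the dashed lines, and the intervals of Trpm5, Pou2f3 and Dclk1 do not reach 0.

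POU2 factors bind the octamer ATGCAAAT, so the RefSeq windows around start sites (GRCm38.p6, 250 bases before to 50 after the start) were searched for it on both strands. Of the 8 genes 6 had windows (all but Pou2f3 and Il25), 8 in all, and none held the octamer. Avil held the shorter ATGCAAA, which is part of the octamer, at 2 places, once on each strand. That shorter motif occurs in 4.63% of all 32851 windows. Of the 48 genes of the 4 other tuft lists 41 had windows, 47 in all, and 6 of the windows (12.8%) held the full octamer, against 1.74% of all windows. The 6 genes range from Rgs21, at 0.16 and 0.17 TPM, to Hpgds, at 11.44 and 11.03 TPM, so the letters occurred beside genes of low and of higher level alike. A match is a description of the sequence and not a shown site.

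The matches of 5 genes are shown as examples: a receptor, a regulator, a coactivator, a release channel and the member Avil, which held only the shorter motif. Hpgds and Kctd12 also held the full octamer and are not shown. Capitals mark the motif, as written or reversed and complemented, in 29 or 30 bases of the gene's own strand. The Rgs21 window is chr1:144567849-144567878, with the motif ending 193 bases before the start, and the Sucnr1 window is chr3:60081810-60081839, 41 bases before. The 1810046K07Rik windows are chr9:51328986-51329015 and chr9:51328955-51328984, 79 and 48 bases before the start, and the Itpr3 window is chr17:27057266-27057295, 20 bases before. The Avil windows are chr10:127000583-127000611 and chr10:127000683-127000711, 109 and 9 bases before.
Rgs21: catatgaagccATGCAAATacgaccttcag
Sucnr1: ggctgcataatATGCAAATcagactgcact
1810046K07Rik, first: ctgcattggggATGCAAATtggagagaaac
1810046K07Rik, second: tacaccagaggATTTGCATttaatcaaatc
Itpr3: tcccaggcgggATTTGCATgtgtgtggcgg
Avil, first: gttttcgctgtTTTGCATaggagcagata
Avil, second: atgtggttatgATGCAAAcacaagcaaat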

How the data were processed

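Total RNA of 2 newborn thymus samples was measured as 1 library each. Per the labels and the deposited read-me texts, the authors aligned to mm10 and quantified on annotation M4. Which aligner, quantifier and strand setting were used is not given in the sources used here. The authors deposited expected counts without normalization, TPM and FPKM per transcript length and library, an interval for each TPM whose credibility level is not stated, and the percent of each gene's TPM that a transcript took. Rows without a gene name (26248 numbered rows, 0.000105% and 4.04e-05% of counts, 96 ERCC spike-ins and phiX) were left out of totals. Of 43346 genes, 42462 matched GENCODE M21 (GRCm38) by identifier, version ignored, and took symbol and coordinates from it.

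Depth was 39045711 and 41576378 counts. A count of 0 allows up to 3 counts. Intervals and floors cover counting error only, since without molecular identifiers a read is not an independent molecule. Counts were rounded for edgeR 4.0.16 (TMM scaling) and DESeq2 1.42.0 (size factors, an alternative) in R 4.3.3. Ratios used a prior count of 0.5. Shared stretches were all 100-base words of the transcripts, since effective lengths were 99 bases below transcript lengths. Scripts ran in Python 3.11.15 with scipy 1.17.1, and the ratio steps were tested on simulated data. The libraries differed by more than sampling noise (chi-square 19.0 per degree of freedom, 18002 genes). The labels call them biological replicates, from different pups of 1 female.

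The 8 genes and the lists were chosen with earlier results of these data known. The rule for names allows all 8 genes, the 3 highest of each tuft list and family, the 2 highest and the first-listed of each cell type list, and genes at 0. Other list genes were named after their values were seen. The alternatives were other detection thresholds, units, scalings, prior counts and count minimums, and each library alone. A threshold on the authors' interval was added after seeing the data.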

Additional observations from a re-analysis of the deposited data

How the results depend on the processing

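No paired analysis was possible because the labels give 1 group. The number of the 8 genes present in both libraries, 3 at 1 TPM, depended on the threshold and unit: it was 7 at 0.1 TPM, 6 at 0.5 TPM, 1 at 5 TPM, 5 at 1 CPM and 7 at 10 counts, and by the lower bound of the authors' interval it was 2. At 1 TPM each library alone gave 4 (Trpm5 joined in replicate 2 and Gnat3 in replicate 1). The share of protein-coding genes was counted only at 1 TPM (57.3%) and at 10 counts (69.3%), in both libraries. The other detection settings in this paragraph lack a background share. Of the 83 genes of the other tuft lists and the Tas2r family, 27 reached 1 TPM. None of the 27 was among the 35 Tas2r genes. All came from the 48 genes of the 4 other tuft lists, a share near the 57.3% of protein-coding genes. At 5 TPM the number was 15, and at 1 TPM each library alone gave 27 and 28. The number over 2-fold between libraries, 0, became 3 with spike-in scaling (Pou2f3 1.08, Trpm5 1.33 and L1cam 1.07 on the log2 scale), as that scaling shifts all ratios up, and 1 without a count minimum (Il25, from 1 and 0 counts). Spike-in scaling also turned Dclk1 from lower to higher in replicate 2, at 0.28. Levels moved by more than 1 SD in 9 cases, each with FPKM or with TPM over protein-coding genes only. Depth limits statements on Il25, the Tas2r genes and other genes with fewer than 10 counts.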

Other observations

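Tuft cells are 1 of several medullary cell kinds that mimic cells of other organs, and their marker lists were small and are described by counts only, beside the 57.3% of protein-coding genes that reached 1 TPM in both libraries. Of 6 microfold cell markers 6 reached 1 TPM in both libraries, with Gp2, a receptor for bacteria on such cells, at 3.56 and 2.61 TPM and Ccl20 at 4.70 and 6.30 TPM, although Marcksl1 (314.79 and 330.95 TPM) and Spib are widely made. Muscle markers, with 4 of 6, were near the background share, among them the muscle factor Myog at 2.50 and 2.90 TPM and Acta1 at 11.97 and 18.4 TPM. Ciliated, keratinised and enterohepatic lists, with 2 of 6 each, were below it. Foxj1, the factor of ciliated cells, had 1.07 and 1.25 TPM, Hnf4a 0.95 and 1.07 TPM and the antimicrobial lectin Reg3g 85.74 and 65.93 TPM.

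The neuroendocrine and ionocyte lists, with 1 of 6 each, were also below that share. Chga, which the parathyroid also makes, had 20.75 and 10.98 TPM, while the neuroendocrine factors Insm1 (0.46 and 0.54 TPM) and Neurod1 (2 and 0 counts) were low. Foxi1, the ionocyte factor, had 13 and 32 counts, or 0.20 and 0.45 TPM, and Stap1, which lymphocytes also make, had 68.14 and 55.32 TPM.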
